A study of Homo sapiens with 4 samples.

Results

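The genes described here encode IWS1 and other proteins with a TFIIS N-terminal domain (TND) fold. They were taken from the deposited table by gene name, and 7 of the 8 names were found among the 10147 listed genes, namely *IWS1*, *PSIP1*, *HDGFL2* (written *HDGFRP2*), *TCEA1*, *ELOA* (written *TCEB3*), *MED26* and *PPP1R10*. *TCEA2*, a second gene for the elongation factor TFIIS, is not listed and has no value. RNA synthesis was measured by TT-seq, which labels new RNA with 4-thiouridine (4sU, here 500 µM for 5 min) and sequences the labelled fraction. All samples, controls included, were K562 cells, a human leukemia line, in which the endogenous *IWS1* gene carries an N-terminal degradation tag (dTAG), and how many clones were used is not stated in the sources used here. According to the labels, 2 control libraries received the solvent DMSO and 2 dIWS1 libraries received 500 nM of the degrader dTAG7, each for 1 h.

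The TND is a small bundle of helices that docks onto short unstructured motifs of other transcription proteins. IWS1 binds SPT6 and travels with the elongating RNA polymerase (Pol) II. PSIP1 (also called LEDGF) and HDGFL2 pair such a domain with a PWWP domain that reads methylated lysine 36 of histone H3, and TCEA1 is the main form of TFIIS, which lets backtracked Pol II cut its transcript and resume. ELOA is the large subunit of Elongin, MED26 is the Mediator subunit that recruits elongation complexes, and PPP1R10 (PNUTS) holds protein phosphatase 1 at Pol II near the ends of genes.

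The deposited table gives 1 mean of normalised reads per gene over all libraries, and whole reads per library column were recovered from it. The recovered columns were 1 control column, which stands 2 times in each mean, and 2 different dIWS1 columns, so the control counted as 1 sample and the spread between replicates was known for dIWS1 alone. In total 29832118 reads fell in listed genes in the control, 20684301 in dIWS1 column 1 and 20886697 in dIWS1 column 2, and the 7 genes had between 511 and 7516 reads per column. The table does not name its direction, which was read from the study's description of its fold changes as dIWS1 over control. Of 11 marker genes of K562 cells, 10 are listed (*BCR* is not), with 7 called lower and 0 higher against the control (65.6% and 0.101% of all genes) and 3 lower and 2 higher against the median gene (15.1% and 15.3% of all genes), and of 8 markers of other cell types 0 are listed. With spike-in scaling, the median log2 change of the 9917 genes tested was −0.42 (quartiles −0.60 and −0.26), and 96.8% of them lay below 0. In bulk RNA, fewer labelled cells and less new RNA per cell cannot be told apart.

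*PPP1R10* had by far the largest change of the 7 genes, with 40.6% of the control level. It fell by 1.30 on the log2 scale (SE 0.14, limma voom adjusted p = 2.55e-17), and 108 of the 9917 genes tested had a lower value. *IWS1* fell to 68.3% and *HDGFL2* to 74.9% of the control. *TCEA1*, *ELOA* and *MED26* lay at 82.3%, 84.9% and 85.9%, and *PSIP1* at 98.4%, and none of these 4 passed the test. All 7 estimates were below 0 under spike-in scaling, while with scaling by total reads only *IWS1* and *PPP1R10* stayed below 0.

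Between them, 3 genes were called lower and 0 higher at an adjusted p under 0.05, where 65.6% of all genes tested were called lower and 0.101% higher. With scaling by total reads 1 of the 7 was called lower and 4 higher, where of the 9917 genes tested 1398 were called lower and 1913 higher. At an unadjusted p under 0.05 and spike-in scaling, 3 of the 7 were again lower, where 69.8% of all genes were lower and 15 genes were higher. Their median log2 change was −0.28, above the −0.42 of all genes. The lone control was assumed to vary like the dIWS1 columns, and the fit pooled the spread over genes.

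**Figure D1:**
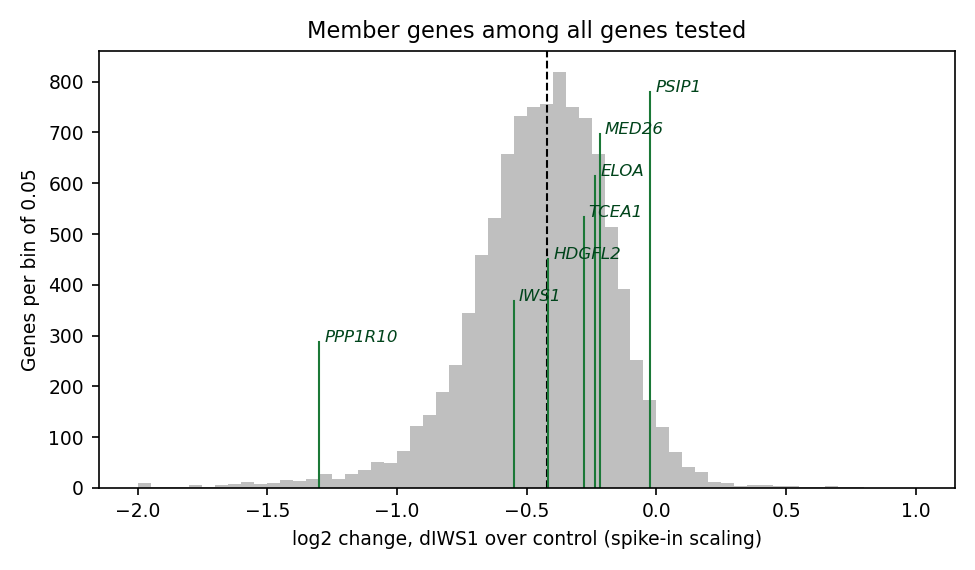
Histogram of the log2 change (dIWS1 over control, spike-in scaling) of the 9917 genes tested, with values outside −2 to 1 in the end bins. Green lines mark the 7 genes, their heights only separating the names, and the dashed line is the median of −0.42: *PPP1R10* stands far to the left at −1.30 and *PSIP1* to the right at −0.02.

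The start regions of *PPP1R10* and *PSIP1* are shown because these genes are at the extremes of the change among the 7. Each is the 250 bases upstream of the RefSeq start (GRCh38.p14), on the minus strand, at chr6:30617244-30617493 for *PPP1R10* and chr9:15510971-15511220 for *PSIP1*, in transcript direction. Capitals mark matches on either strand to 3 promoter motifs. The TATA box was searched as TATAAA. The CCAAT box was searched by the letters of its name, and the GC box was searched as GGGCGG.
PPP1R10: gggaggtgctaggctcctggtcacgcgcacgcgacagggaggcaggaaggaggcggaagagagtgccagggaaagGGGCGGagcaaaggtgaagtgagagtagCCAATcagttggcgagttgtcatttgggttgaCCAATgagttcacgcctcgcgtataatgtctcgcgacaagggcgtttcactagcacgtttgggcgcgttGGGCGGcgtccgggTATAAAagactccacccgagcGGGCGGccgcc
PSIP1: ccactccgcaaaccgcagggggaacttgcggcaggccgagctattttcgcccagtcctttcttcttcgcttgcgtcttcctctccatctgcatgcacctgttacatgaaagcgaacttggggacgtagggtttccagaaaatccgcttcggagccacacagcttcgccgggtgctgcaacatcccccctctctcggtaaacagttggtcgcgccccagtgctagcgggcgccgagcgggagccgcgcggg

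The *PPP1R10* window held 1 match to TATAAA, 2 to CCAAT and 3 to GGGCGG, and the *PSIP1* window held 0 of each. The GC content of the windows was 61.2% and 61.6%, with 23 CG pairs in each. Of the 6 genes with an entry in the RefSeq promoter table, *PPP1R10* alone matched TATAAA, which is found in 11.1% of all 27305 promoters and in 5.12% of those of listed genes. CCAAT was found in 3 of the 6 genes (33.0% of all promoters, 36.1% of those of listed genes) and GGGCGG in 4 (42.3% of all, 68.8% of those of listed genes). *TCEA1* was not among the 6.

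dTAG7 removes the IWS1 protein, so the transcript of the targeted gene does not measure the depletion. *IWS1* (chromosome 2, 127480812 to 127527336, minus strand, 14 exons in the canonical transcript) had 3684 reads for the control against 2334 and 2427 for dIWS1 columns 1 and 2. Divided by the size factors these were 3649, 2350 and 2640 normalised reads, so both dIWS1 columns lay below the control. The log2 change was −0.55 (SE 0.15, adjusted p = 0.000836). With scaling by total reads it was −0.11 and did not pass the test (adjusted p = 0.203). Among the 4929 other genes with a mean of at least 1000, the nearest to *IWS1* in the pair of column ratios were *HDLBP* (Euclidean distance 0.0008 in log2 units over 2 columns), *CLCN3* (0.0058) and *MCM5* (0.0063). Their log2 changes of −0.55, −0.55 and −0.55 equal that of *IWS1* because they were chosen by these ratios.

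*PPP1R10* (chromosome 6, 30600413 to 30617243, minus strand, 20 exons) is the shortest of the 7 genes by span, 16831 bp. Its reads were 2260 for the control and 853 and 882 for dIWS1. In normalised reads the values were 2239, 859 and 959, and the dIWS1 columns lay close together and far below the control. Against the control, column 1 gave a log2 ratio of −1.38 (95% counting interval −1.50 to −1.27) and column 2 one of −1.22 (−1.34 to −1.11), the intervals covering counting error only. The nearest listed gene, chosen after its values were seen, was *MRPS18B*, a mitochondrial ribosomal protein gene that starts 597 bp from *PPP1R10*. Its reads were 558, 368 and 331 in the same order, with a log2 change of −0.60 (SE 0.13, adjusted p = 3.35e-05). A call lower than the control was made for 65.6% of all genes. Against the median gene *MRPS18B* was at −0.18 and did not pass the limma voom test (adjusted p = 0.245), where *PPP1R10* was at −0.88.

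The 2 reader proteins of methylated histone H3 differed in their values. *PSIP1* (chromosome 9, 15464066 to 15510970, minus strand, 16 exons) had 4175 control reads against 3823 and 3955 for dIWS1. After scaling, 4135 control reads stood between 3849 in column 1 and 4302 in column 2, so the dIWS1 columns lay on both sides of the control. The log2 change was −0.02 with an interval of −0.32 to 0.27 (adjusted p = 0.890). *HDGFL2* (chromosome 19, 4472297 to 4502207, plus strand, 16 exons) had 721 control reads and 511 in each dIWS1 column, or 714, 514 and 556 normalised reads. Both dIWS1 columns lay below the control, with a log2 change of −0.42 (SE 0.13, adjusted p = 0.00323), which is the value of the median gene. With scaling by total reads its log2 change was 0.025 (adjusted p = 0.872). *PSIP1* lay above *HDGFL2* in log2 ratio by 0.37 in column 1 and by 0.42 in column 2, a difference between genes that was not tested.

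*TCEA1* (chromosome 8, 53966556 to 54022448, minus strand, 10 exons) carried the most reads, 7516 in the control, 5658 in column 1 and 6061 in column 2. Its normalised reads were 7445, 5697 and 6592, and the distance between the dIWS1 columns was similar to that from column 2 to the control. The log2 change was −0.28 (SE 0.15, adjusted p = 0.0840). For *ELOA* (chromosome 1, 23743471 to 23762059, plus strand, 11 exons) the reads were 1238, 972 and 1018, or 1226, 979 and 1107 normalised reads. Its log2 change was −0.24 (SE 0.14, adjusted p = 0.113). *MED26* (chromosome 19, 16574919 to 16628204, minus strand), which has 3 exons over 53286 bp, had 4844, 3902 and 3978 reads. In normalised reads these were 4798, 3929 and 4327, and the log2 change was −0.22 (SE 0.15, adjusted p = 0.182). In these 3 genes both dIWS1 columns lay below the control, and the intervals of the changes reached from −0.57 to 0.01, from −0.50 to 0.03 and from −0.52 to 0.08.

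**Figure D2:**
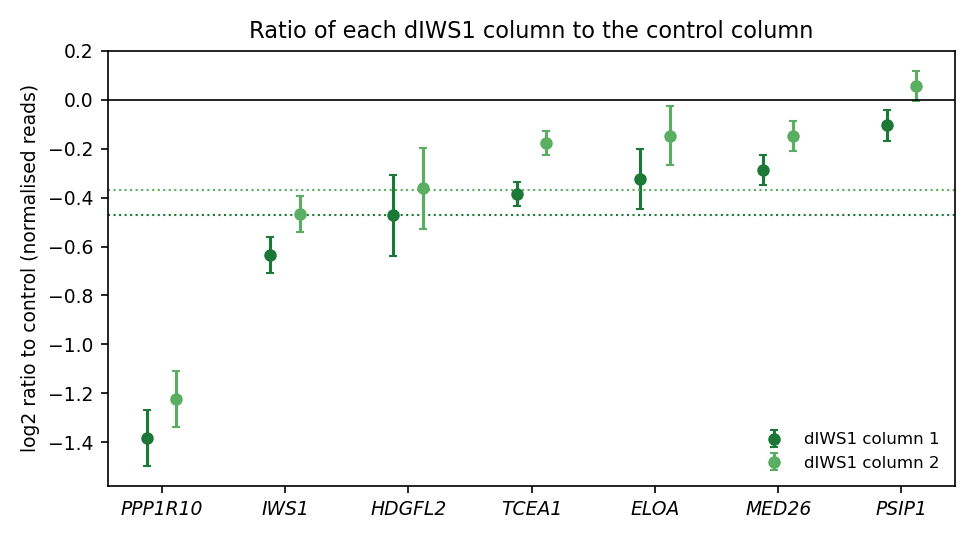
Log2 ratio of normalised reads in dIWS1 column 1 (dark) and column 2 (light) to the control column, with 95% counting intervals. The dotted lines are the median genes of the columns at −0.47 and −0.37, and *PPP1R10* is the lowest gene in both columns and *PSIP1* the highest.

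After scaling, column 1 lay below column 2 in all 7 genes, by 0.11 (*HDGFL2*) to 0.21 (*TCEA1*) on the log2 scale. The median of all genes differed the same way, by −0.12 (column 1 over column 2). This offset between the columns entered the standard errors of the changes above.

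Since most genes lay below the control, each gene was also compared with the median gene of its column. In this comparison *PSIP1* was higher by 0.40 (SE 0.08, limma voom adjusted p = 3.85e-06) and *MED26* by 0.20 (SE 0.08, adjusted p = 0.0275). *PPP1R10* was lower by the same measure, at −0.88 (SE 0.08, adjusted p = 4.48e-23). Of the 7 genes, 2 were thus called higher and 1 lower, where 15.3% and 15.1% of all genes tested were called. The values of *PSIP1* were 0.37 in column 1 and 0.43 in column 2, those of *MED26* 0.18 and 0.22, and those of *PPP1R10* −0.91 and −0.85. For each of the 3 the columns lay on 1 side of the median gene.

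The other 4 genes did not pass this test. *ELOA* was at 0.19 (interval 0.02 to 0.35, adjusted p = 0.0893) and *TCEA1* at 0.14 (−0.0001 to 0.28, adjusted p = 0.126). *IWS1* itself was at −0.13 (−0.28 to 0.02, adjusted p = 0.196), with −0.16 in column 1 and −0.10 in column 2. *HDGFL2* was at 0.0043 (−0.20 to 0.20, adjusted p = 0.980). In both columns 4 of the 7 genes lay above the median gene and 2 below it, with a median of 0.14 over the 7.

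Levels of different genes were compared as normalised reads per kb of the RefSeq gene span. In the control *TCEA1* (133.2, 95% counting interval 130.2 to 136.2) and *PPP1R10* (133.0, interval 127.6 to 138.6) had the highest level per kb of span and did not differ beyond counting error. Per kb of summed exon length the same reads gave 1727 for *TCEA1* and 430 for *PPP1R10*, which was then the fifth of the 7. *MED26* (90.0) and *PSIP1* (88.2) followed, again with overlapping intervals. *IWS1* had 78.4, *ELOA* 66.0 and *HDGFL2* 23.9 normalised reads per kb. The median of 9872 genes with a length was 41.4, so *HDGFL2* alone lay below it, and 89.9% of genes had a lower level than *TCEA1*. The range over the 7 genes was 5.58-fold.

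The order by span differed in dIWS1. *PPP1R10* stood at 51.0 and 57.0 normalised reads per kb in columns 1 and 2, the fifth of 7 in both, beside *IWS1* at 50.5 and 56.7. *PSIP1* had the second highest level per kb in both columns, 82.1 and 91.7. *TCEA1* remained the highest at 101.9 and 117.9 and *HDGFL2* the lowest at 17.2 and 18.6. With 1 control column, no spread between controls stands behind these levels.

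**Figure D3:**
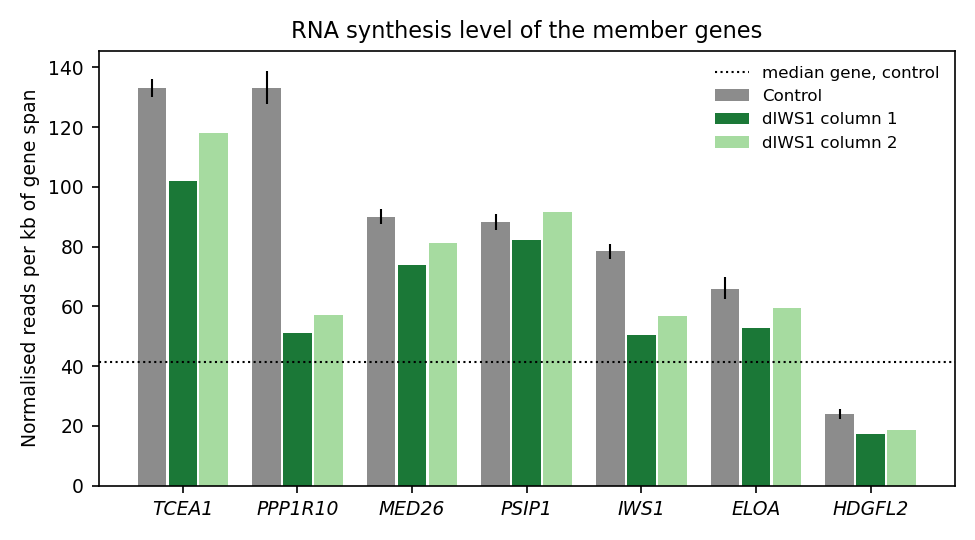
Normalised reads per kb of gene span in the control (grey, with 95% counting intervals) and the dIWS1 columns (green), with the median gene of the control as a dotted line at 41.4. *PPP1R10* drops from 133.0 to 51.0 and 57.0, while *PSIP1* has 88.2 in the control and 82.1 and 91.7 in dIWS1.

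A few features of the 7 genes did not enter the choice. All lie on autosomes, their spans run from 16831 to 55893 bp around a median of 28166 bp for the genes tested, and exons make up from 7.71% of the span in *TCEA1* to 30.9% in *PPP1R10*. *ELOA* is the one gene with an antisense partner listed under its own name, *ELOA-AS1* (written *TCEB3-AS1*, chosen after its values were seen), whose span in current RefSeq overlaps the 3′ end of *ELOA* by 1678 bp. The counting used strand, and the reads of *ELOA-AS1* were 1058, 495 and 443. Its log2 change of −1.10 (SE 0.13, adjusted p = 3.06e-14) stands beside −0.24 for *ELOA*. The current RefSeq spans of *PSIP1* and *SNAPC3* overlap by 2670 bp, and *SNAPC3* had 1996, 1544 and 1694 reads and a log2 change of −0.22 (SE 0.14, adjusted p = 0.155). Pseudogenes of *TCEA1*, *PSIP1*, *ELOA* and *PPP1R10* exist in RefSeq, and reads that fit gene and copy equally were not counted, because unique alignments were kept.

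Lists of relatives and partners give the setting of these values. Of 11 relatives of TFIIS or of HDGF, chosen without requiring a TND, 5 are listed. Of these, 2 were called lower and 0 higher (65.6% and 0.101% of all genes). The lowest was *DIDO1*, a reader of histone H3 with a TFIIS-like domain, which had a log2 change of −0.62 and also lay below the median gene (−0.20, adjusted p = 0.0337). The highest was *HDGFL3* (written *HDGFRP3*), at −0.11, which lay above the median gene by 0.31 (adjusted p = 0.000633). Against the median gene 1 of the 5 was thus called lower and 1 higher, beside 15.1% and 15.3% of all genes. The median log2 change of the 5 was −0.30. Of the 5, *HDGFL1* had only 14 control reads against 9 and 15 for dIWS1 columns 1 and 2. Its SE was 0.40, and its column ratios of −0.59 and 0.23 differed in sign.

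Of 12 genes of the elongation complex around IWS1, 11 are listed (*CDC73* is not), with a median log2 change of −0.38. Of these, 8 were called lower and 0 higher, beside 65.6% and 0.101% of all genes, and against the median gene 1 was called lower and 1 higher, beside 15.1% and 15.3%. The lowest, *SETD2*, which encodes the enzyme that trimethylates histone H3 at lysine 36, is given without values, because its reads could be split in 2 ways and the deposited comparison chose between them. *CTR9*, a scaffold subunit of the PAF1 complex, was the highest at −0.19 and lay above the median gene by 0.23 (adjusted p = 0.0264). The other 9 did not pass the test against the median gene, among them *SUPT6H*, the gene of the IWS1 partner SPT6 (0.07, adjusted p = 0.529).

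For the partners of PSIP1, 6 of 6 genes are listed, with a median of −0.40, 4 called lower and 0 higher (65.6% and 0.101% of all genes). The lowest, *KMT2A*, the gene of a histone H3 lysine 4 methyltransferase tethered by PSIP1, is given without values for the same reason as *SETD2*. *CDCA7L* and *DBF4*, whose products bind the domain of PSIP1, had log2 changes of −0.08 and −0.10 that did not pass the test. Column 1 gave −0.19 and −0.22 for them and column 2 gave 0.02 and 0.01, so the sign depended on the column. Both lay above the median gene in both columns, by 0.34 (adjusted p = 0.000502) and 0.32 (adjusted p = 0.000237) in the fit. Against the median gene 2 of the 6 were thus called higher and 0 lower, beside 15.3% and 15.1% of all genes. Of the 5 Elongin partners of ELOA, 2 were called lower and 0 higher, and 0 were called against the median gene in either direction, beside 65.6%, 0.101%, 15.1% and 15.3% of all genes. Their values ran from −0.54 for *ELOB* to −0.22 for *RNF7*.

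The 6 partners of MED26 hold the 1 gene on any of these lists that was called higher than the control (0.101% of all genes were). *EAF2*, an ELL-associated factor, had 286 control reads against 453 and 372 for dIWS1, both above the control, with a log2 change of 0.60 (SE 0.14, adjusted p = 7.24e-05). Of the other 5, 3 were called lower (65.6% of all genes), and the lowest was *TAF7*, a TFIID subunit, at −0.51. *EAF1* (−0.04, with −0.14 in column 1 and 0.05 in column 2) and *ELL2* (−0.11) lay above the median gene by 0.38 (adjusted p = 0.00033) and 0.31 (adjusted p = 0.000249). With *EAF2*, 3 of the 6 were called higher against the median gene and 0 lower, beside 15.3% and 15.1% of all genes. Of 5 partners of PPP1R10 in its phosphatase complex 4 are listed (*WDR82* is not), with values from −0.44 for *PPP1CA*, a catalytic subunit, to −0.26 for *PPP1CB*. None of the 4 was called against the median gene (15.1% and 15.3% of all genes were), where *PPP1R10* was at −0.88, and 2 were called lower than the control (65.6% of all genes).

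**Figure D4:**
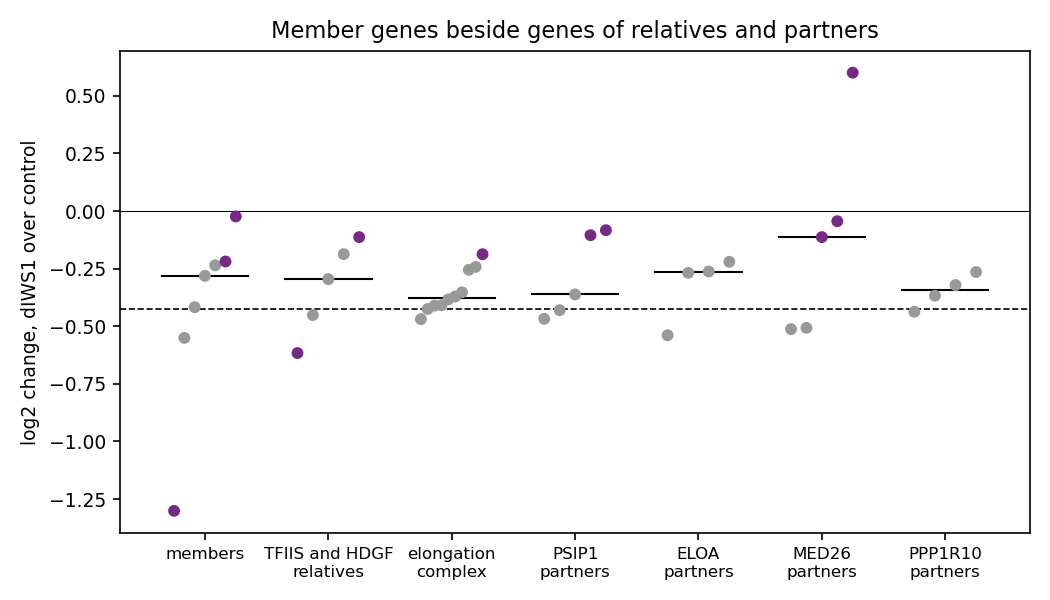
Log2 change (dIWS1 over control, spike-in scaling) of the 7 genes and of the lists, 1 point per gene whose reads had 1 split, with the median of the plotted points as a bar and the median of all genes as a dashed line at −0.42. Purple points were called against the median gene, and *PPP1R10* at −1.30 and *EAF2* at 0.60 are the lowest and the highest point.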

How the data were processed

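According to the submitters' processing notes and the study's methods, the authors mapped the TT-seq reads with STAR 2.6.0 to a GRCh38 index extended by the spike-ins, retained uniquely aligned reads, and took strand-aware counts of read pairs in RefSeq genes. They describe a gene set without overlapping genes and with over 10 reads per kb. The table itself holds 11 genes with a mean of 0 and pairs that overlap in current RefSeq. Per the file headers and the study's methods, the deposited mean is a signal, namely normalised reads averaged across libraries after division by spike-in size factors from DESeq2. The deposited log2 fold change and adjusted p-value hold the authors' own comparison and were used only to read the direction of the table and to choose among several splits of a mean.

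The smallest means gave 3 steps, the value of 1 read in each column. All 9619 genes with a mean above 0 and under 10000, every gene described among the 7 included, had 1 split into whole reads from the mean alone. For 493 of the genes above it, the split within 0.002 of the deposited log2 fold change was taken. The size factors were 1.01 for the control and 0.993 and 0.919 for dIWS1 columns 1 and 2. The dIWS1 columns carry no replicate number. The genes with several splits include *SETD2*, *KMT2A*, *CUL5*, *AFF4* and *ABL1* on the lists. Their values are neither printed nor plotted, but they stay in counts, medians and column totals. The fit was repeated without such genes (9424 genes), an alternative chosen after seeing the data.

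Genes with a mean of at least 10 were fitted with limma voom (two-sided, Benjamini-Hochberg adjustment over 9917 genes) on 1 control and 2 dIWS1 columns, with 1 residual degree of freedom per gene. The second fit centred each dIWS1 column on its median gene. The threshold was an adjusted p under 0.05. Splitting and fitting were tried on simulated data. The data simulated for the fit held no offset between the dIWS1 columns, so that trial cannot vouch for the calls made here. A count test was not the main test because the table holds no counts per library. The p-values set each change against the spread between the dIWS1 columns, which the fit pooled over genes. No spread between controls entered them. Intervals of levels and column ratios are exact and cover counting error only. Intervals of log2 changes, also those against the median gene, are approximate 95% intervals from the standard errors of the fit.

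The genes and lists were chosen with earlier results of these data known. Named were the 7 genes, the lowest and highest gene of each list and those called against the median gene, and the 3 genes nearest to *IWS1*. *SUPT6H*, *HDGFL1* and 3 neighbouring genes were added after their values were seen. Spans came from RefSeq (GRCh38.p14) and exons from GENCODE release 44. Of 10147 listed names, 9353 matched by symbol, 576 by synonym and 169 by gene number. Software was Python 3.11.15, scipy 1.17.1, R 4.3.3 and limma 3.58.1.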

Additional observations from a re-analysis of the deposited data

How the results depend on the processing

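The 7 genes kept their directions and calls against the control without a filter on low means, with a mean of at least 100 and with limma-trend (pseudocount 1). Scaling by total reads, which moves the median log2 change of all genes from −0.42 to 0.018, left *PPP1R10* called, gave −0.11 for *IWS1* (no longer called) and turned *PSIP1* (0.42), *HDGFL2* (0.025), *TCEA1* (0.16), *ELOA* (0.21) and *MED26* (0.22). Then 1 of the 7 was called lower and 4 higher, and of the 9917 genes tested 1398 lower and 1913 higher. With the control column entered 2 times, which adds no information on spread between controls, *TCEA1* (−0.28, adjusted p = 0.0433), *ELOA* (−0.24, adjusted p = 0.0473) and *MED26* (−0.22, adjusted p = 0.0362) were called too. Then 6 of the 7 were lower, where of the 9917 genes tested 7824 were lower in place of 6510 and 46 higher in place of 10. Against the median gene that entry also called *IWS1* (−0.13, adjusted p = 0.0315) and *ELOA* (0.19, adjusted p = 0.0194), with 2 of the 7 lower, and 2674 genes lower and 2687 higher in place of 1497 and 1515. With a mean of at least 100, *HDGFL2* turned from 0.0043 to −0.0030 against the median gene. At an adjusted p under 0.01, 6 genes were higher than the control, and at 0.1 there were 18. Against the median gene 948 genes and 1 of the 7 (*PSIP1*) were higher at 0.01. At 0.1, *TCEA1* was also called lower than the control, so that 4 of the 7 were, beside 7358 of all genes. Against the median gene *ELOA* was also called higher at 0.1, so that 3 of the 7 were, beside 1867 of all genes. The causes of these shifts other than the changed setting itself were not tested. Without the genes whose split used the deposited comparison (chosen after seeing the data), the calls of the 7 did not change, and *HDGFL2*, not called, turned to −0.00097 against the median gene. From 1 dIWS1 column alone, called values of the 7 moved by less than 1.5 times, while of those not called *PSIP1* ran from −0.10 to 0.06, *TCEA1* from −0.39 to −0.18, *ELOA* from −0.33 to −0.15 and *MED26* from −0.29 to −0.15, and against the median gene *TCEA1* from 0.09 to 0.19 and *HDGFL2* from −0.00041 to 0.0082. Levels per kb of summed exon length were 1727 for *TCEA1*, 901 for *MED26*, 876 for *IWS1*, 613 for *PSIP1*, 430 for *PPP1R10*, 229 for *ELOA* and 167 for *HDGFL2*. No paired analysis was possible because the recovered columns carry no replicate number and the control is 1 column.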
